A study of Mus musculus with 10 samples.

Results

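The expression change from passage 10 (p10) to passage 20 (p20) of male mouse embryonic stem cells (mESCs) grown on gelatin was measured by RNA-seq in 4 of the 10 libraries of the series, 2 at p10 and 2 at p20. The libraries were taken by their labels, p10 Old and p20 Old, which the labels also call On, and not by any measured value. According to the study's methods, Old or On is the Mulas2019 method, in which cells attach to gelatin, and New or Off is the study's own Keniry2022 method, in which cells grow in suspension and are passaged more often. The study derived 2 lines of strain C57/Bl6 in suspension, split each line at passage 0 (p0) and kept the parts for 10 and 20 passages under each method. All cells were in 2i media, without a transgene or a deletion. Replicates 1 and 2 on gelatin are called line 1 and line 2 here. The sources used here do not tie the numbers to the lines in words, and Y-linked reads, given next, follow the numbers on gelatin but not in suspension at p20. The comparison asks which transcripts drift between p10 and p20 on gelatin. With 2 lines, it describes these lines and not mESCs in general. Passage number, days in culture and the handling of each harvest change together between p10 and p20 and cannot be told apart.

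The 2i medium contains inhibitors of the kinases MEK and GSK3, which block signals for differentiation and stabilise beta-catenin, and it holds mESCs in the naive state, the state of the early epiblast. This state rests on a network of transcription factors around Pou5f1, Sox2, Nanog, Esrrb and Klf factors. Long culture of mESCs is known to select for cells that divide or survive well, and changes of chromosome copy number are a known hazard of it. Stress pathways that follow culture conditions include the p53 pathway, which responds to DNA damage, and the integrated stress response, in which the factor ATF4 raises genes of amino acid supply and tRNA charging.

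The gelatin libraries held 24240641 and 30236822 reads at p10 and 27692207 and 27447096 at p20 in lines 1 and 2, with 86.0% to 87.1% of the reads in features. All 6 mESC markers (Pou5f1, Nanog, Sox2, Esrrb, Zfp42 and Tfcp2l1) were above a log2 RPKM of 0 in every library, and their summed level was 4388 and 4507 CPM (reads scaled to library size) at p10 and 4683 and 4653 at p20. None of 4 fibroblast and none of 4 mesoderm markers were above 0 in the gelatin libraries, 1 of 4 trophectoderm, 2 of 4 neural and at most 1 of 6 primitive endoderm markers were, and the summed levels of these lists did not exceed 184 CPM. The male label was checked with the Y-linked genes Kdm5d, Eif2s3y, Uty and Ddx3y. These genes together had 5930 reads at p10 and 4578 at p20 in line 2, but 43 and 13 reads in line 1. The study describes a loss of the Y chromosome in a line that it does not number, which arose while the line was derived. In suspension at p20, replicate 1 had 6659 such reads and replicate 2 had 48, so these 2 libraries go against the numbers of the other groups. They touch the gelatin comparison only through the shared estimate of spread.

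Levels are given as log2 RPKM (reads scaled to exon length and library size, on a log2 scale), and differences as p20 minus p10 on that scale, so that 1 is a doubling, with the standard error (SE) of the fit. Of 25965 features, 11654 were expressed highly enough to be tested. With limma on the 8 p10 and p20 libraries, 188 features were higher (1.61% of those tested) and 100 were lower at p20 (0.858%) at an adjusted p under 0.05, and all 288 called features (2.47%) had p10 and p20 values that did not overlap. Without a test, both p20 values lay above both p10 values in 27.7% of all features tested and below them in 25.5%. The called differences were small. Their median size was 0.48 among the higher and 0.36 among the lower features, and 18 higher and 2 lower features differed by at least 1. Adjusted p-values of called features ran from 0.00969 to 0.0492. Because the samples are bulk RNA, fewer cells that express a gene and less RNA per cell cannot be told apart here.

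The number of calls depended heavily on which libraries gave the estimate of spread. When the p0 pair was added, no feature was called (lowest adjusted p = 0.143), while 772 of 11561 features had an unadjusted p under 0.05, and these held 222 of the 288 called features. The p0 replicates differed from each other more than the gelatin replicates did, with an SD of their difference over features of 0.61 against 0.25 at p10 and 0.26 at p20. The 4 gelatin libraries alone gave 10 calls without the pairing by line and 372 of 11811 with it (3.15%), of which 191 were among the 288. Leaving out p20 replicate 2 on gelatin left no call (1700 features at an unadjusted p under 0.05), p20 replicate 1 left 13, p10 replicate 1 left 12, and p10 replicate 1 or 2 in suspension left 15 each. The split between higher and lower calls depended on scaling. The share of higher calls was 65.3%, but 51.3% after centring each library on its median, 50.9% with voom on recovered reads and 46.8% after centring each chromosome.

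**Figure D1:**
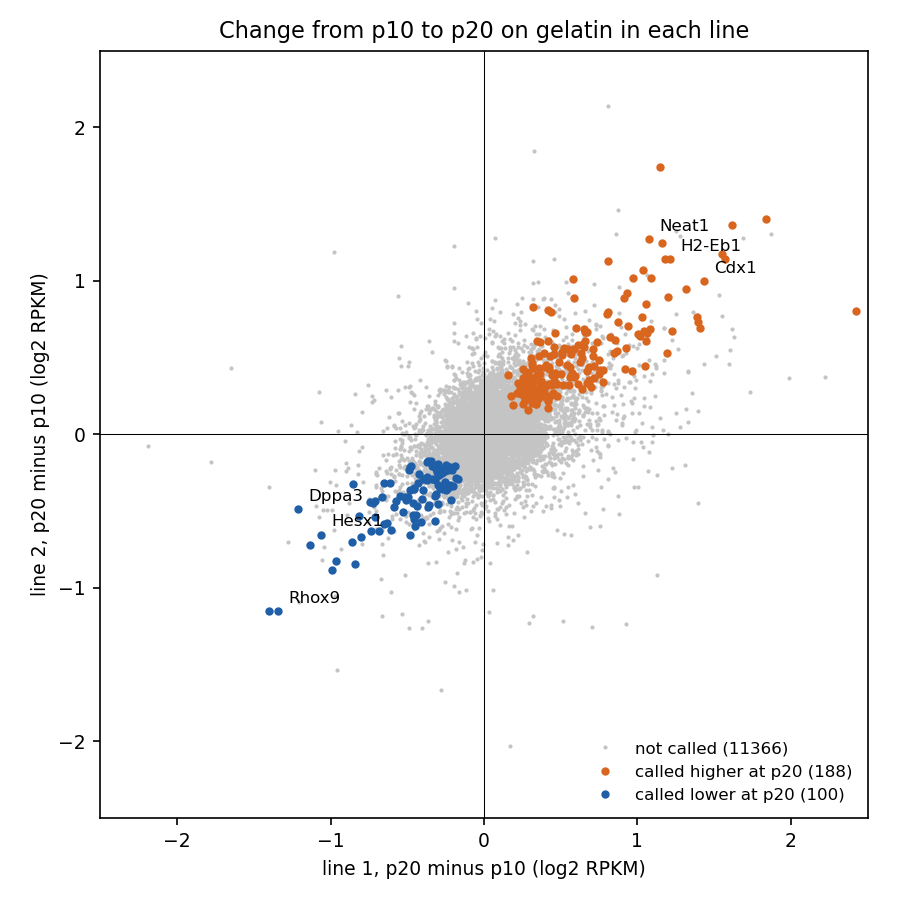
Each point is a tested feature, with its p20 minus p10 difference in log2 RPKM in line 1 on the x axis and in line 2 on the y axis; orange points are the 188 features called higher at p20, blue points the 100 called lower and grey points the rest, and 2 features lie outside the axes. All called features lie in the upper right or lower left field, where both lines changed the same way.

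The lines moved in a similar way, with a Pearson correlation of their differences of 0.47 across 11654 features, which are not independent replicates and share the same alignment and feature lengths. Both lines were higher at p20 in 33.4% of features and lower in 30.7%. The SD of the differences was 0.26 in line 1 and 0.22 in line 2.

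The largest called increases among features with a mean log2 RPKM of at least 3 were in Cdx1, H2-Eb1 and Malat1, all of which more than doubled. Cdx1 (chr18:61018862-61036199, minus strand, mm10), a homeobox factor of posterior identity and a direct WNT target, was at 3.53 and 3.77 at p10 in lines 1 and 2 and at 4.96 and 4.77 at p20. It was higher by 1.22 (SE 0.11, adjusted p = 0.00969), or 2.33-fold. Both p20 libraries lay above both p10 libraries, as in every feature called higher. H2-Eb1 (chr17:34305883-34316199), which encodes the beta chain of an MHC class II molecule, was at 2.59 and 2.92 at p10 and at 3.81 and 4.07 at p20, a difference of 1.18 (SE 0.12, adjusted p = 0.0125). The p0 libraries had 3.39 and 2.70, below both p20 values. Fstl1, a secreted follistatin-like glycoprotein, rose from 2.69 and 3.09 to 3.63 and 4.01 (0.93, SE 0.18, adjusted p = 0.0426). Line 2 was above line 1 at both passages, and the p20 value of line 1 still exceeded the p10 value of line 2.

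Mep1b, which encodes a meprin metalloprotease subunit, was at 4.59 and 4.56 at p10 and at 5.39 and 5.35 at p20. The lines nearly coincided at each passage, and the difference was 0.79 (SE 0.083, adjusted p = 0.0125). Pttg1, securin, the inhibitor of separase in mitosis, rose from 4.01 and 4.13 to 4.68 and 4.79 (0.66, SE 0.066, adjusted p = 0.0125). All gelatin libraries were below the p0 libraries, at 6.09 and 5.36, so the p20 value was nearer to p0 than the p10 value. Mme, the membrane metalloendopeptidase neprilysin, rose from 4.17 and 4.33 to 4.89 in both lines (0.63, SE 0.058, adjusted p = 0.00969). Of the 21 alternative analyses, Mme kept its call in 19, and Cdx1 in 18. The other increases among the 12 largest were the noncoding or unnamed features Gm20417, CR555305.1 and E330020D12Rik, at 1.05, 0.80 and 0.67, together with Accsl at 0.67 and Hmgn5, a nucleosome-binding protein, at 0.62. CR555305.1 is a feature of short span on chromosome 19 that is not matched to GENCODE by name.

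Among features with a mean log2 RPKM of at least 3, the largest called decreases were in Hesx1 and Dppa3, genes of the early embryo. Hesx1 (chr14:27000362-27002329), a homeobox repressor of the formative epiblast and forebrain, was at 4.08 and 3.61 at p10 and at 3.02 and 2.96 at p20, a difference of -0.86 (SE 0.13, adjusted p = 0.0322). Dppa3 (chr6:122626410-122630272), also known as Stella, which protects maternal methylation and hinders the maintenance methylation factor Uhrf1, was at 6.18 and 5.82 at p10 and at 4.96 and 5.33 at p20. It was lower by 0.85 (SE 0.16, adjusted p = 0.0426), with a larger change in line 1, and the groups did not overlap, as in every called feature. Gpc3, an X-linked heparan sulphate proteoglycan that restrains growth signals, fell from 5.06 and 4.84 to 4.31 and 4.39 (-0.59, SE 0.092, adjusted p = 0.0322). The gelatin p20 values were near those of p0, at 4.15 and 4.11.

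Hip1, a clathrin adaptor that links endocytosis to actin, fell from 4.25 and 4.09 to 3.65 and 3.47 (-0.62, SE 0.084, adjusted p = 0.0319). Fam129a, a stress-induced regulator of translation also known as Niban, was at 4.65 and 4.34 at p10 and at 4.02 and 3.76 at p20, a difference of -0.61 (adjusted p = 0.043). The other 7 were Glipr2, the lysosomal thiol reductase Ifi30, the phosphatase subunit Ppp2r2c, Crip1, Gm17035, the inositol kinase Itpka and Chac1, with differences from -0.57 to -0.45 and adjusted p-values from 0.0319 to 0.0461. Gm17035 is antisense to Ndrg1, and without the strand setting its reads cannot be told from those of Ndrg1.

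**Figure D2:**
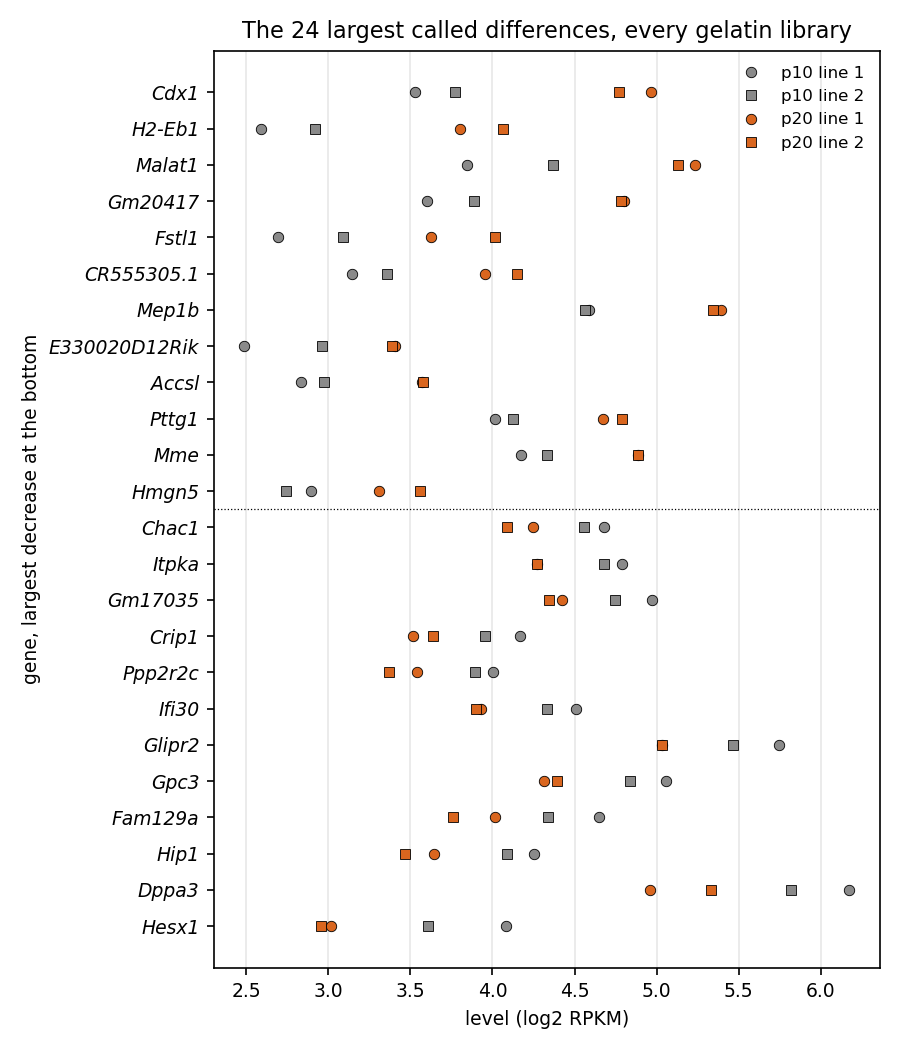
Level in log2 RPKM on the x axis of the 12 genes with the largest called increase (upper block) and the 12 with the largest called decrease (lower block), for every gelatin library; grey is p10, orange is p20, circles are line 1 and squares are line 2. In every gene the orange symbols lie on one side of both grey symbols, by the rule that chose the genes.

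Among 30 tested targets of the p53 pathway, 7 rose (23.3%, against 1.61% of all features tested), none fell, and the median difference was 0.14, against 0.0053 over all features tested. Cdkn1a, the cell cycle inhibitor p21, was at 5.87 and 6.01 at p10 and at 6.26 and 6.25 at p20, a difference of 0.32 (SE 0.052, adjusted p = 0.0366). Ccng1, cyclin G1, rose from 6.40 and 6.46 to 6.74 and 6.84 (0.37, SE 0.053, adjusted p = 0.0319). Pmaip1, the BH3-only death protein Noxa, rose from 4.20 and 4.42 to 4.74 and 4.87 (0.49, SE 0.094, adjusted p = 0.0426). Both lines rose in these genes and the groups did not overlap, as in every feature called higher. Ddit4l, an inhibitor of mTOR signalling, rose from 2.01 and 2.33 to 2.66 and 2.94 (0.63, SE 0.13, adjusted p = 0.0455).

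The remaining called members, which were named after their values were seen, were Trp53inp1 (0.31), the kinase Plk2 (0.28) and Ckap2 (0.21). With the pairing by line in the gelatin libraries, the adjusted p was 0.0635 for Plk2 and 0.106 for Ckap2. Other well known targets did not pass the test. Mdm2, the ubiquitin ligase that degrades p53, was at -0.058 (adjusted p = 0.514), the death effectors Bax and Bbc3 at 0.018 and -0.062, and Trp53 itself at 0.049. In both lines, 20 of the 30 targets were higher (66.7%, against 33.4% of all features tested) and 5 were lower (16.7%, against 30.7%). The count of called targets was 6 in the paired fit. It was 0 in the fit with the p0 libraries, with the gelatin libraries unpaired, with no filter on low values, without p10 replicate 1, p20 replicate 1 or p20 replicate 2 on gelatin, and without either p10 suspension library.

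Targets of the integrated stress response and ATF4 lay lower at p20. Of 48 tested members, 4 fell (8.33%, against 0.858% of all features tested) and none rose. The median difference was -0.17, against 0.0053 over all features tested, and 44 of 48 were below 0. Both lines were lower in 41 members (85.4%, against 30.7% over all features tested), with medians of -0.17 in line 1 and -0.18 in line 2. Chac1, an enzyme that degrades glutathione, was at 4.68 and 4.56 at p10 and at 4.25 and 4.09 at p20, a difference of -0.45 (SE 0.092, adjusted p = 0.0461). Ppp1r15a, known as Gadd34, which brings a phosphatase to eIF2 alpha and so ends the response, fell from 3.83 and 3.70 to 3.43 and 3.33 (-0.38, SE 0.065, adjusted p = 0.0377). The p20 values on gelatin were closer to those of p0 in both genes, since p0 had 3.87 and 3.08 for Chac1 and 3.60 and 3.27 for Ppp1r15a. Both genes lay lowest in the p20 libraries among the gelatin libraries, as did every feature called lower.

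The tRNA synthetase genes Eprs and Gars fell by less. Eprs went from 7.58 and 7.41 to 7.24 and 7.21 (-0.27, SE 0.054, adjusted p = 0.0434), and Gars from 8.24 and 8.17 to 7.98 and 7.93 (-0.25, SE 0.049, adjusted p = 0.0434). In the paired fit of the gelatin libraries, their adjusted p was 0.0527 and 0.0596, so these calls did not hold there. Other members were just short of the threshold or far from it. Trib3, a pseudokinase that dampens ATF4, was at -0.39 (adjusted p = 0.0778), Atf5 at -0.27 (adjusted p = 0.0691), the asparagine synthetase Asns at -0.13 (adjusted p = 0.265) and Atf4 itself at -0.067 (adjusted p = 0.555). Ddit3, known as Chop, stood at 0.047. The number of called members was 6 in the paired fit and 18 with voom. It was 0 in each alternative that gave 0 for the p53 targets. The median of the list lay between -0.24 and -0.14 in the 21 alternatives. Many of these alter only the spread and cannot move the median. Both ends of the range came from leaving out a gelatin p20 library, replicate 1 for the lowest and replicate 2 for the highest.

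ATF4 is known to bind C/EBP-ATF response elements, and the promoters of the called members were searched for the letters TGATGNAA on both strands. The windows run from 250 bases before to 50 bases after the RefSeq start of the gene (GRCm38.p6), and 3.97% of all 32851 such windows hold a match. Chac1 and Gars each had 1 match, at 193 and 30 bases before the start, and none was found in the windows of Eprs and Ppp1r15a. The windows with a match are printed from the gene's own strand, with the matching letters in capitals, to show where the element lies relative to the start. The Chac1 window is chr2:119350992-119351291 and the Gars window is chr6:55037751-55038050, both on the plus strand.
Chac1: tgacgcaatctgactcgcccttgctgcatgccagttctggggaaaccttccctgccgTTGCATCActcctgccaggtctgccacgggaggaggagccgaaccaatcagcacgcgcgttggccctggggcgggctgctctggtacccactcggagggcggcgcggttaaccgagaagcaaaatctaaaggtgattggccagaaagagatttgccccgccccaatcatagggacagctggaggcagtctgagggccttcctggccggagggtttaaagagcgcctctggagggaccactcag
Gars: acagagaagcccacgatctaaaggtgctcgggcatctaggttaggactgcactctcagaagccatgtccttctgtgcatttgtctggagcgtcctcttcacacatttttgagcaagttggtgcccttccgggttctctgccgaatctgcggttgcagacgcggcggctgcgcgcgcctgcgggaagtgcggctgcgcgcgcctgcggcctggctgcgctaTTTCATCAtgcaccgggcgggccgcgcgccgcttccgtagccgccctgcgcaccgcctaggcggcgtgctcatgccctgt
Of the 40 tested members with a window, 15 held a match (37.5%). Their median difference was -0.14, and that of the 25 without a match was -0.19. The difference between these medians was not tested. A match is a description of the letters and no evidence of binding.

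Of 17 tested WNT targets and feedback genes, 3 rose (17.6%, against 1.61% of all features tested) and none fell. The median was 0.082, but it ranged from 0.0097 without p10 replicate 1 on gelatin to 0.30 without p10 replicate 2. Besides Cdx1, these were the feedback inhibitors Axin2 and Notum. Axin2, a scaffold of the beta-catenin destruction complex, was at 1.74 and 1.87 at p10 and at 2.41 and 2.28 at p20 (0.54, SE 0.091, adjusted p = 0.0369). Notum, an extracellular enzyme that removes a lipid from WNT proteins, rose from 4.28 and 4.54 to 4.85 and 4.91 (0.47, SE 0.078, adjusted p = 0.0369). In all 3 genes each p20 library was above each p10 library, as in every feature called higher. Sp5 and Myc had differences of 0.64 and 0.76 that did not pass the test (adjusted p = 0.0808 and 0.161), and Ccnd1, cyclin D1, and Axin1 stood at -0.18 and -0.17. Without p20 replicate 2 on gelatin none of the 3 was called (adjusted p = 0.0553 for Cdx1), and without p10 replicate 1 or p20 replicate 1 on gelatin or either p10 suspension library 1 was called. None was called with the p0 libraries or with no filter on low values.

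Of 17 core pluripotency factors, 1 was called (5.88%, against 2.47% of all features tested). Gbx2, a homeobox factor that supports self-renewal, rose from 1.80 and 2.02 to 2.62 and 2.65 (0.73, SE 0.14, adjusted p = 0.0426). Pou5f1 was at 8.29 and 8.37 at p10 and at 8.35 and 8.36 at p20, with a difference of 0.024 (SE 0.04, adjusted p = 0.766). Nanog was at 8.73 and 8.67 and then at 8.68 and 8.72, and its groups overlapped. Sox2 differed by 0.088, Esrrb by -0.019, Zfp42 by -0.02, Nr5a2 by -0.022, Prdm14 by -0.016 and Tbx3 by -0.037, with adjusted p-values from 0.378 to 0.878. Klf4 had the lowest value of the list, from 5.94 and 5.75 to 5.64 and 5.57 (-0.24, SE 0.064, adjusted p = 0.0772). It was called lower in 4 of the 21 alternatives, among them voom (adjusted p = 0.04). Klf5, Sall4, Stat3, Tcl1, Klf2, Tfcp2l1 and Nr0b1 were not called, with differences from -0.17 to 0.18. The median of the list was -0.016.

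Naive and formative markers moved in both directions. Of 32 tested naive markers, 2 rose and 2 fell (12.5%, against 2.47% of all features tested), with a median of 0.081. The demethylating enzyme Tet1 was at 5.53 and 5.59 at p10 and at 5.23 and 5.26 at p20 (-0.31, SE 0.049, adjusted p = 0.0333), which together with Dppa3 gives the decreases. The adhesion molecule Jam2 rose from 5.44 and 5.56 to 5.89 and 5.83 (0.36, SE 0.061, adjusted p = 0.0377). Zfp57, which guards methylation at imprinted regions, rose from 5.64 and 5.66 to 6.01 in both lines (0.36, SE 0.063, adjusted p = 0.0386). The libraries of each group were close together in these 3 genes. Fgfbp1 and Trh had the largest differences of the list, 1.48 and 1.22, but did not pass the test (adjusted p = 0.0553 and 0.0628). Of 21 formative and primed markers, Hesx1 fell and Nodal, a TGF-beta family ligand, rose by 0.27 (SE 0.048, adjusted p = 0.0386; 0.0632 in the paired fit). Called members were 9.52% of that list, against 2.47% of all features tested. Dnmt3b differed by 0.0018 and Pou3f1 by -0.18.

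Nuclear long noncoding RNAs were among the largest changes. Malat1 (chr19:5795690-5802671), an RNA of nuclear speckles, was at 3.85 and 4.37 at p10 and at 5.24 and 5.13 at p20, a difference of 1.07 (SE 0.15, adjusted p = 0.0319) that was 1.39 in line 1 and 0.76 in line 2. Neat1 (chr19:5824708-5845478), the scaffold of paraspeckles and the neighbour of Malat1, was at 0.50 and 0.48 at p10 and at 1.57 and 1.76 at p20 (1.17, SE 0.13, adjusted p = 0.0125). In p0 both were low, with 3.63 and 3.15 for Malat1 and 0.21 and 0.072 for Neat1, so the gelatin p20 libraries held the highest levels of all 10 libraries. Gm20417 (chr19:5797562-5798549) lies inside Malat1 on the opposite strand, and its rise of 1.05 cannot be told from that of Malat1 without the strand setting. Snhg12, a host gene of small nucleolar RNAs, fell from 4.73 and 4.60 to 4.26 and 4.40 (-0.34, adjusted p = 0.0426; 0.0556 in the paired fit). Of the 7 tested members 2 rose and 1 fell (42.9%, against 2.47% of all features tested). The share of reads in lincRNAs was 0.0992% and 0.103% at p10 and 0.127% in both lines at p20. How much of that rise Malat1 and Neat1 themselves make up was not worked out. The share of reads in features was 87.1% and 87.0% at p10 and 86.1% and 86.0% at p20. Whether RNA quality or the preparation of the libraries had a part in these increases was not tested.

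Of 25 genes of the DNA methylation machinery, Dppa3 and Tet1 fell and Zfp57 rose, as above (12%, against 2.47% of all features tested), and Dnmt1, the maintenance methyltransferase, stood at -0.14 (adjusted p = 0.0972). Ezh2, the methyltransferase of PRC2, went from 5.74 and 5.65 to 5.44 and 5.43 (-0.26, SE 0.044, adjusted p = 0.0369, and 0.0596 in the paired fit). It was the single call among 23 PRC genes (4.35%, against 2.47% of all features tested). Of 30 germline genes that respond to DNA methylation, 1 rose and 2 fell, 3 of 30 in all (10%, against 2.47% of all features tested). Tex101 rose from 0.08 and 0.05 to 1.24 and 1.30 (1.20, SE 0.22, adjusted p = 0.0391), on 27 and 33 reads at p10 and 69 and 71 at p20. The X-linked homeobox gene Rhox9 fell from 1.06 and 0.62 to -0.28 and -0.53 (-1.25, SE 0.20, adjusted p = 0.0354), and the meiotic cohesin gene Smc1b from 3.22 and 3.10 to 2.49 and 2.65 (-0.59, adjusted p = 0.0471). The germline genes thus had no common direction, with a median of -0.071.

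Replication-dependent histone genes had the lowest median of all lists, -0.32 over the 14 of 68 members that could be tested. The median was -0.15 in line 1 and -0.39 in line 2. Of the 14, 1 was called (7.14%, against 2.47% of all features tested). Hist1h2bj was at 2.07 and 2.03 at p10 and at 1.07 and 1.14 at p20 (-0.94, SE 0.19, adjusted p = 0.0455). It rested on few reads, 47 and 57 at p10 and 27 and 28 at p20. Both lines were lower in 7 of the 14 (50%, against 30.7% of all features tested). None of 68 genes of DNA replication and mitosis was called, with a median of -0.028. Of 34 tested imprinted genes, Mkrn3 rose by 0.56 (SE 0.10, adjusted p = 0.0386) and no other was called (2.94%, against 2.47% of all features tested).

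Lists of metabolic and growth genes had medians near 0. None of 85 cytosolic ribosomal protein genes was called, with a median of -0.039 and a range from -0.51 to 0.39, and none of 76 mitochondrial ribosomal protein genes, with a median of 0.0012. None of 84 ribosome biogenesis factors (median -0.035), 45 proteasome subunits (-0.036), 41 chaperones (-0.038) or 30 targets of hypoxia-inducible factor (-0.05) was called. Of 77 nuclear-encoded genes of oxidative phosphorylation, the testis-type subunit gene Cox6b2 and the muscle-type subunit gene Cox7a1 rose by 0.34 and 0.33 (adjusted p = 0.0434 and 0.0369). Of 27 glycolysis genes, Hk2, hexokinase 2, went from 6.85 and 6.90 to 6.68 and 6.60 (-0.23, adjusted p = 0.0391; 0.0838 in the paired fit), and Pdha1, a subunit of pyruvate dehydrogenase, rose from 5.96 and 6.05 to 6.28 and 6.31 (0.29, adjusted p = 0.0386). Among 34 sterol genes Ebp rose by 0.34 (adjusted p = 0.0322). The antioxidant genes Gsr and Hmox1, 2 of 34 tested, fell by 0.23 and 0.22, with an adjusted p of 0.073 and 0.0989 in the paired fit. Called shares were 2.6% in oxidative phosphorylation, 7.41% in glycolysis, 2.94% in sterol and 5.88% in antioxidant genes, against 2.47% of all features tested.

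Of 48 lysosome and autophagy genes, 8.33% were called, against 2.47% of all features tested. Among them, the cathepsins Ctsc and Ctsf rose by 0.86 and 0.48, while Tfe3, a factor that drives lysosomal genes, fell by 0.28 (adjusted p = 0.0471; 0.107 in the paired fit). Ctsc was at 0.97 and 1.29 at p10 and at 2.16 and 1.81 at p20. B2m, the light chain of MHC class I, rose from 2.76 and 2.85 to 3.45 and 3.16 (0.50, SE 0.10, adjusted p = 0.0434). It was the single call among 16 interferon genes (6.25%, against 2.47% of all features tested). The groups of both genes were apart, as in every called feature, by more in Ctsc than in B2m.

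Of 37 genes of integrins, basement membrane and focal adhesion, Ptk2, the focal adhesion kinase, was at 4.04 and 4.03 at p10 and at 3.79 and 3.72 at p20 (-0.28, SE 0.053, adjusted p = 0.0403; 0.0661 in the paired fit), and no other was called (2.70%, against 2.47% of all features tested). Of 29 YAP and SRF targets, Cnn3, calponin 3, rose by 0.36 and the actin gene Actg1 fell by 0.28 (adjusted p = 0.0426 for both). They were 6.90% of the list, against 2.47% of all features tested. With each chromosome centred, Cnn3 had an adjusted p of 0.0718, and in the paired fit Actg1 had 0.0696. Of 21 junction genes, 1 was called (4.76%, against 2.47% of all features tested). Tjp3, a tight junction scaffold, fell from 2.62 and 2.37 to 1.93 and 1.74 (-0.66, SE 0.13, adjusted p = 0.0426). No member was called among 21 ERK feedback genes, 6 primitive endoderm, 7 trophectoderm, 4 mesoderm and neural and 3 fibroblast genes that could be tested, or the single tested gene of the 2-cell-like state. Of 5 tested Y-linked genes, 4 were lower in both lines, with a median of -0.25, but the SEs ran from 3.47 to 4.39, since each group holds a line with few such reads, so the test could call none of them.

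**Figure D3:**
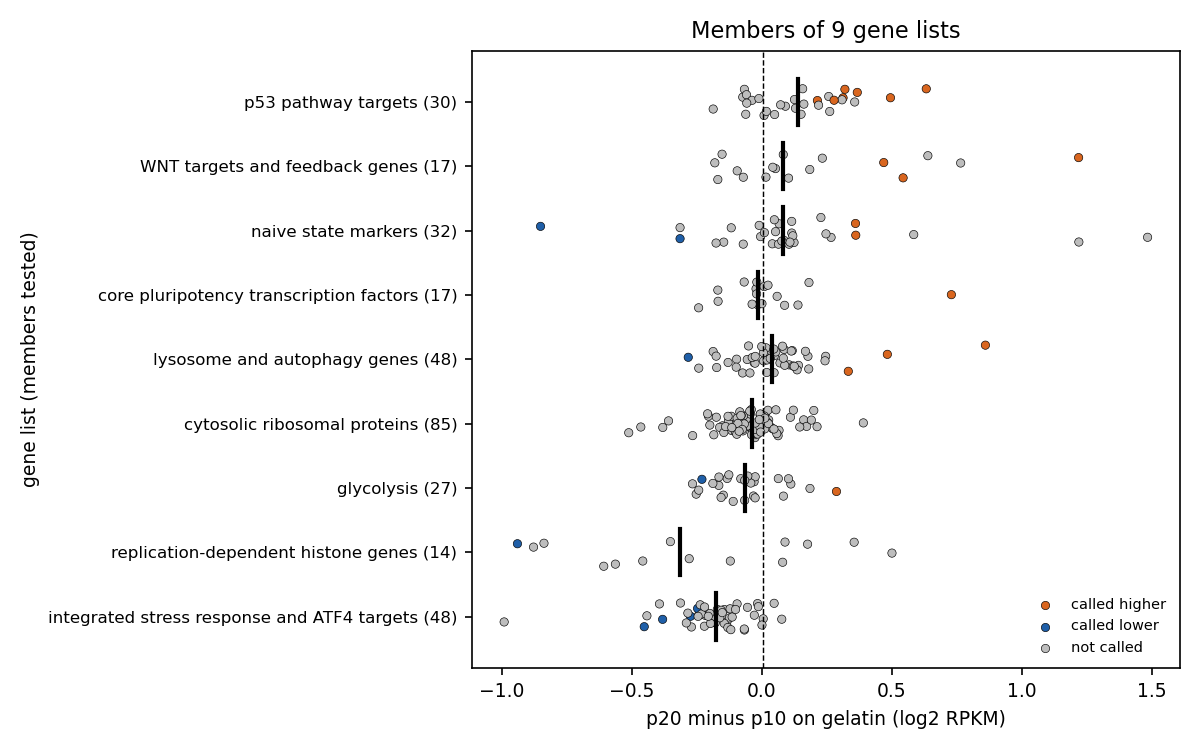
The p20 minus p10 difference on gelatin in log2 RPKM on the x axis for each tested member of 9 gene lists, with the number of members beside each name; orange members were called higher, blue were called lower, grey were not called, the thick bar is the median of the list and the dashed line is the median over all features tested. The stress response list lies to the left with a median of -0.17 and the p53 targets to the right with a median of 0.14.

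The same passages in suspension, in the same fit, gave 4 called features, all higher at p20 (0.0343%). Cells in suspension were passaged more often, so p10 to p20 covered fewer days there than on gelatin. Culture method and days between the passages cannot be told apart in this comparison. The comparisons share no library, since each method has its own p10 and p20 libraries, but they share 1 estimate of spread. A test of the difference between the methods called no feature (1836 at an unadjusted p under 0.05, lowest adjusted p = 0.0636). The same test called 88 features with voom and 17 with the 8 libraries paired by number. The numbers of the p20 suspension libraries go against those of the other groups, as said above. With these numbers swapped, an alternative added after seeing the data, the paired test called no feature. Cdx1 differed by 0.61 (SE 0.11) in suspension and by 1.22 on gelatin, with an adjusted p of 0.147 for the difference. Chac1 differed by -0.49 in suspension and by -0.45 on gelatin. H2-Eb1 differed by 0.18 in suspension and by 1.18 on gelatin (adjusted p = 0.076 for the difference). Neat1, with -0.024 in suspension, had an adjusted p of 0.069 for the difference. The stress response list had a median of -0.029 in suspension and the p53 list 0.0076.

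**Figure D4:**
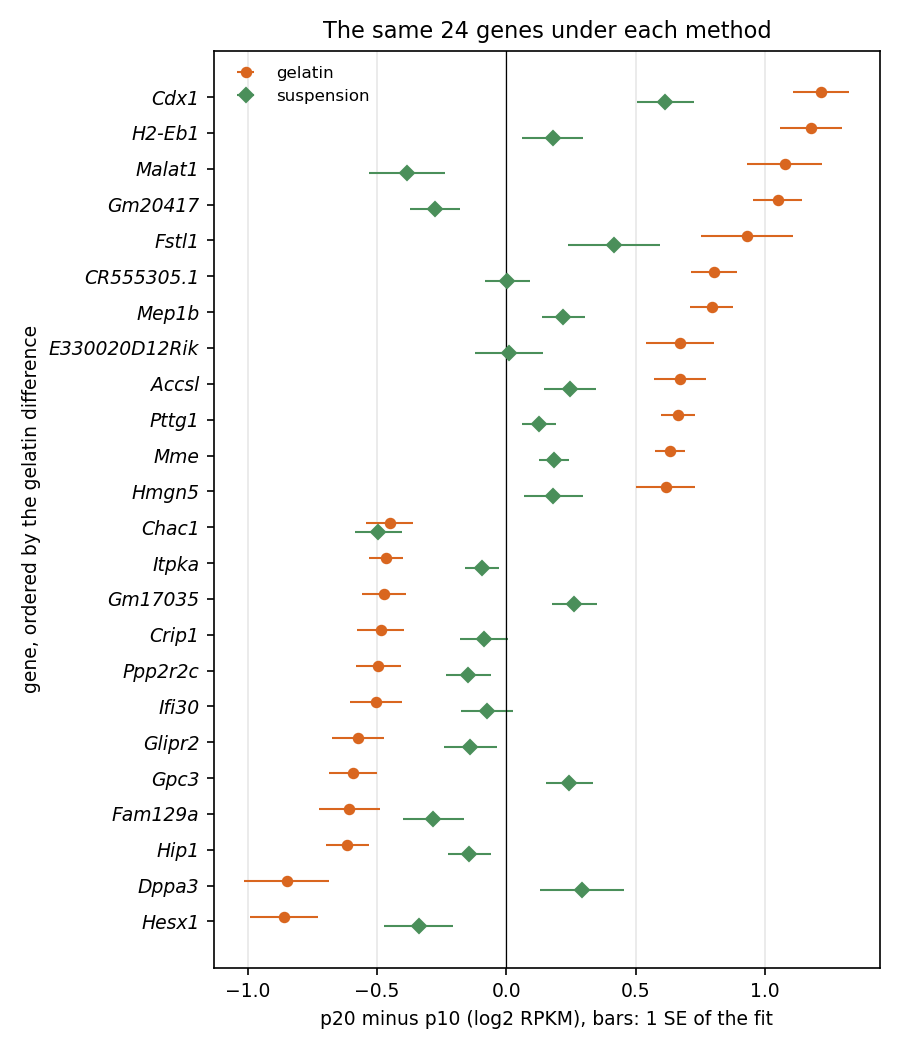
Difference p20 minus p10 in log2 RPKM on the x axis for the 24 genes with the largest called differences on gelatin, shown for gelatin (orange circles) and suspension (green diamonds), with bars of 1 SE of the fit. The genes were chosen by their gelatin difference, so larger differences on gelatin follow from the choice; Chac1 has nearly the same value under both methods, and Malat1, Gm20417, Gpc3, Gm17035 and Dppa3 lie on opposite sides of 0.

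Chromosome 3 had the highest centred median of all chromosomes in each line. Over 531 tested features, the median difference of chromosome 3, centred on the median over the autosomes, was 0.061 in line 1 and 0.20 in line 2, whereas the other autosomes lay between -0.035 and 0.028 in either line and chromosome X at 0.027 and 0.038. Relative to the mean of the 8 p10 and p20 libraries, the chromosome 3 median was -0.087 and -0.043 at p10 on gelatin and -0.01 and 0.16 at p20, so that p20 replicate 2 stood 11.9% above the mean. In p0 it was -0.09 and -0.052, in suspension at p10 -0.073 and -0.051, and in suspension at p20 0.12 in replicate 1, the library with Y-linked reads, and -0.028 in replicate 2. Both p20 libraries with many Y-linked reads therefore had the high values. The shift in line 2 spanned the chromosome, with medians from 0.16 to 0.23 in 8 windows of 20 Mb, and 455 of the 531 features (85.7%) lay above the centre in that line. In line 1 the windows ranged from -0.021 to 0.082.

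All 16 called features on chromosome 3 were higher at p20 (3.01% of those tested there, against 1.61% called higher over all chromosomes). No feature there was called lower, against 0.858% over all chromosomes. With each chromosome centred on its own median, 9 higher and 3 lower features were called there, 8 of them among the 16. Mme and the p53 target Ddit4l are on this chromosome, and in each line their differences, 0.71 and 0.55 for Mme and 0.66 and 0.61 for Ddit4l, exceeded the chromosome median. So did those of Wls, which carries WNT proteins to the cell surface, at 0.75 and 0.48, and of the annexin Anxa5, 0.94 and 0.71 (both named after their values were seen). The study also sequenced DNA of these male cells. Apart from the lost Y chromosome, it reports no major abnormality of whole chromosomes. On gelatin, it does report that a majority of the genome was differentially represented against p0 at p10, and a far smaller part at p20. In suspension it reports no such region. Copy number was not analysed here, and the part of the chromosome in these changes was not tested beyond that centring. Chromosome X had 13 higher and 7 lower calls among 391 features (5.12%, against 2.47% of all features tested). With each chromosome centred, 11 higher and 10 lower features were called there, 18 of them among the 20.

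**Figure D5:**
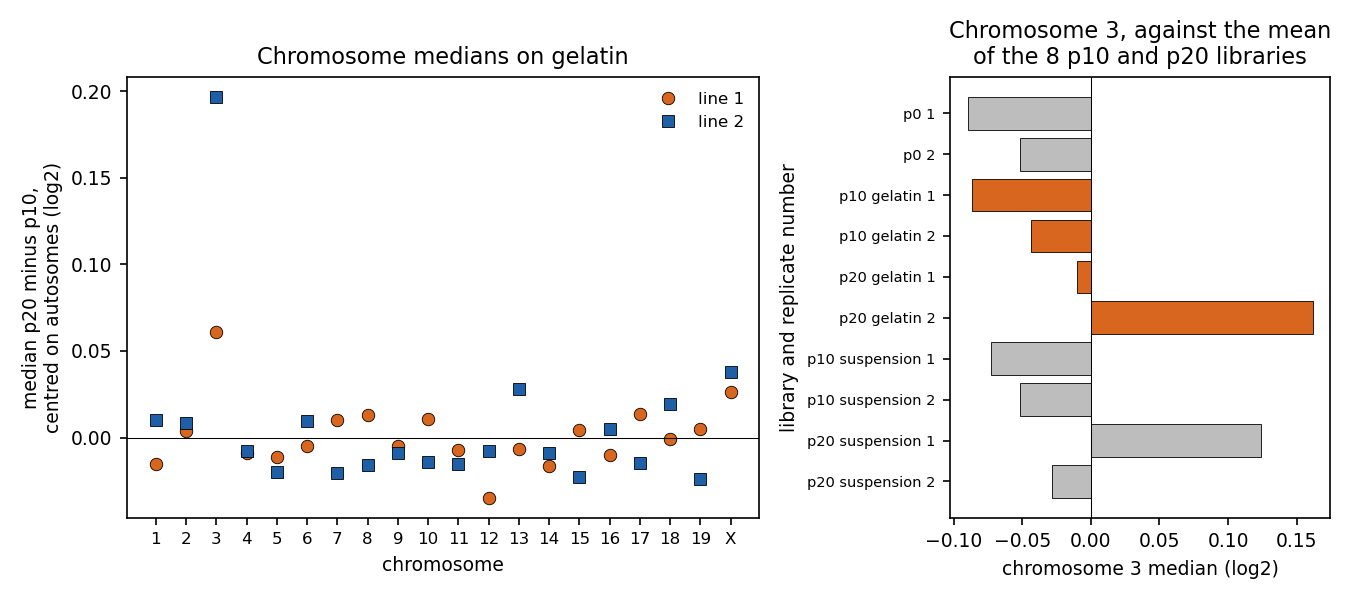
Left, the median p20 minus p10 difference on gelatin of the tested features of each chromosome, centred on the autosomal median (log2), for line 1 (circles) and line 2 (squares); right, the chromosome 3 median of each library against the mean of the 8 p10 and p20 libraries (log2), with gelatin in orange. Chromosome 3 stands at 0.20 in line 2 and 0.061 in line 1, and the highest library is p20 replicate 2 on gelatin at 0.16.

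Differences also depended on the level of the feature. The median difference was 0.072 in 1351 features with a mean log2 RPKM of at most 1 and -0.053 in the 100 features above 8, with intermediate values in order between them, and the order was similar in each line. Of the higher calls, 48.4% had a mean under 3, compared with 33.0% of the lower calls and 46.4% of all features tested.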

How the data were processed

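Single-end RNA-seq reads of 10 mESC libraries were aligned to mm10 by the authors and quantified in SeqMonk. The study names HISAT2 and the submitters' notes name TopHat2 2.0.12, and neither states the annotation release or the strand setting. The authors deposited 1 table of log2 values for 25965 features. The table is named as log CPM, but the deposited log2 values are log2 RPKM, since the floor of a feature without reads depends on its exon length, with 0 entered as 0.9 reads. Library totals and reads were worked out from these floors and whole-read steps (100% of values whole within 0.1 reads), and 22618 features matched GENCODE vM21 by name. Depth counts are therefore recovered, and 1664 features have several possible lengths.

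The moderated test of limma 3.58.1 with an intensity trend (R 4.3.3, two-sided, Benjamini-Hochberg over all features tested, threshold 0.05) was run on the log2 values of the 8 p10 and p20 libraries as 4 groups without a block. Features were tested when above 0 in at least 50% of these libraries. The authors' own test used edgeR normalisation and voom on counts, with passages pooled by method. The p0 libraries were left out here because an earlier look at these data had shown their pair to differ more than the others. An exact permutation test of 2 against 2 cannot go below p = 0.333. The study split each of its 2 lines. Y-linked reads pair the numbers on gelatin, where the deviations of p10 and p20 correlated at 0.51, but not in suspension, where they correlated at -0.50. The block by line was an alternative ("paired fit"), with scaling, filters, added RPKM, weights, voom and leaving out each library. The scripts were tested on simulated data.

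Named genes were the 12 largest called increases and decreases with a mean log2 of at least 3 and no overlap, up to 4 called members of each of 36 gene lists and all core pluripotency factors. Members and lists were chosen with earlier results of these data known. No test was run on a list, and genes named outside the rule were chosen after their values were seen. Some results are not reported here.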

Additional observations from a re-analysis of the deposited data

Results flagged for a closer look

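Of the genes named in the report, 6 moved in opposite directions under the 2 methods, with no overlap of p10 and p20 under either. The step from p10 to p20 took fewer days in suspension than on gelatin. For each, the p20 minus p10 difference on gelatin minus that in suspension is given on the log2 scale, with limma's test of that difference. Malat1 rose on gelatin and stood at -0.38 in suspension, a gap of 1.46 (SE 0.21, adjusted p = 0.069). Gm20417, inside Malat1, had a gap of 1.32 (adjusted p = 0.0636). Dppa3 fell on gelatin and stood at 0.29 in suspension, a gap of -1.14 (SE 0.23, adjusted p = 0.104). Gpc3 had a gap of -0.84 (adjusted p = 0.0717) and Gm17035 one of -0.74 (adjusted p = 0.076). Nr0b1, an X-linked pluripotency factor also known as Dax1, was not called on gelatin, where it differed by 0.18, and had a gap of 0.34 (adjusted p = 0.178). The 6 genes came out of 41 named genes that were examined for opposite directions, and none passed the test of the difference. The share of all features tested that move this way was not worked out. On gelatin alone, both p20 values lay above both p10 values in 27.7% of them and below in 25.5%. As said above, the reads of Gm20417 cannot be told from those of Malat1, nor those of Gm17035 from Ndrg1.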

How the results depend on the processing

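The 288 calls on gelatin became 0 with all 10 libraries, 10 with the gelatin libraries unpaired, 14 with no filter, 645 with voom, and 0 to 306 when a library was left out. With the replicate block they were 280 in the 8 libraries and 372 in the gelatin libraries. With the p20 New numbers crossed, an alternative added after seeing the data, the block gave 493 calls on gelatin, 11 in suspension and 0 for the difference between methods. That difference, with no call in the report, had 17 calls with the replicate block, 1 with each chromosome centred (added after seeing the data), 2 with the filter at log2 2, 4 with no filter, 88 with voom and 0 to 22 when a library was left out. The 4 calls in suspension became 0 with all 10 libraries, 8 with the block, 7 with quantile normalisation, 2 with median centring, 2 with no filter, 51 with voom and 0 to 16 when a library was left out.

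None of the 63 named genes that were called changed sign in any alternative, while 537 of 1316 pairs of such a gene and an alternative lost the call. For most alternatives the sign of these genes was fixed in advance. Some alter only the spread or the filter. Leaving out a gelatin library cannot reverse a gene whose p10 and p20 values do not overlap. Signs changed in uncalled pluripotency factors. With chromosomes centred, Sox2 was at -0.039, Nanog at -0.056, Tcl1 at -0.048 and Pou5f1 at -0.037; with median centring Nanog was at -0.022 and Tcl1 at -0.013; with voom they were at -0.0098 and -0.0088. When a library was left out, Prdm14 ranged from -0.051 to 0.019, Tbx3 from -0.10 to 0.027, Nanog from -0.029 to 0.030, Zfp42 from -0.061 to 0.021, Klf2 from -0.037 to 0.15, Tcl1 from -0.13 to 0.15 and Pou5f1 from -0.014 to 0.061. List medians could not be computed where no member was tested (the 2-cell-like genes with the filter at log2 2 and the Y-linked genes without some libraries).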

Other observations

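The groups below were chosen after the values were seen and carry no test. Among 302 tested genes named Zfp, most of which encode zinc finger proteins, 9 rose and 2 fell from p10 to p20 on gelatin (3.64% called, against 2.47% over all features). Their median difference was 0.098, at 0.073 in line 1 and 0.13 in line 2, and 51.7% were higher in both lines, against 33.4% of all features tested. The called members included Zfp57, Zfp882 (0.62), Zfp866 (0.42) and Zfp809 (0.29), a KRAB factor that silences retroviruses, while Zfp36l2, which is an RNA decay factor and no KRAB protein, fell by 0.36.

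The 21 tested tRNA synthetase genes, which partly overlap the stress response list, had a median of -0.12, and 61.9% were lower in both lines, against 30.7% of all features. The largest called difference of all was in 2900052L18Rik, with 34 and 68 reads at p10 and 139 and 163 at p20, a difference of 1.62 (SE 0.21, adjusted p = 0.0275). The homeobox gene Tlx2, with 22 and 55 reads at p10 and 135 and 87 at p20, differed by 1.61 (adjusted p = 0.047), and the surface enzyme Bst1 by 1.36 (adjusted p = 0.0397) on 26 and 55 and then 87 and 113 reads. Reads are not independent molecules, so low counts carry more error than these numbers show.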
